A study of Mus musculus with 4 samples.

Results

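Heat shock and DNAJ chaperones were followed in the spleen of vcS5 and wild-type mice. They were taken as every row of the deposited expression table whose gene symbol begins with Hsp or Dnaj, which gave 59 of 14226 rows and 58 gene symbols, since Dnajc24 has 2 rows. RNA was sequenced from splenocytes, the mixed cells of the spleen, of C57BL/6N mice, with 2 wild-type and 2 vcS5 libraries that the labels call biological replicates. The labels give the genotype of the second group as vcS5 +/T, a transgenic line that the table's headers call line1, and according to its title the series concerns peripheral T cell lymphoma driven by mutated, active STAT5. The promoter that drives the transgene and the age and sex of the mice are not given in the sources used here. The comparison of vcS5 with wild type asks how the expression profile of the transgenic spleen differs.

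Heat shock proteins bind unfolded or partly folded proteins and use ATP to help them fold, to keep them soluble or to hand them on for degradation. HSP70 chaperones clamp onto exposed hydrophobic stretches, DNAJ proteins (also called HSP40) bring them their clients and trigger ATP hydrolysis through a conserved J domain, and HSP90 acts later on kinases, receptors and other clients. HSF1 drives the stress-induced members of the cytosol. The endoplasmic reticulum (ER) set is driven by the unfolded protein response and is high in cells that secrete much protein, such as plasma cells, while the mitochondrial set folds imported proteins. Lymphocyte signalling depends on HSP90 and HSP70, which hold several kinases and transcription factors in a folded state.

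The values are FPKM, fragment numbers divided by the length of the transcript and by the mapped total, so levels of different genes can be compared per length. The number of reads behind them is unknown. Median FPKM over all rows was 12.16 and 12.49 in wild type against 12.22 and 12.58 in vcS5. Stat5a, the gene of the STAT5A transcription factor, stood at 13.9 and 17.0 FPKM in wild type and at 105 and 123 in vcS5. Cell type markers differed widely between the groups. Of 11 rows of B cell markers 10 were past the threshold and lower in vcS5, against 3 of 12 plasma cell markers, 1 of 11 neutrophil markers and 1 of 5 dendritic cell markers. Both vcS5 libraries lay below wild type in 10 of 11 neutrophil, 10 of 12 plasma cell and 4 of 5 dendritic cell rows. Summed FPKM of the neutrophil rows was 6463 and 1946 in wild-type replicates 1 and 2, against 1047 and 1012 in vcS5. Of 6 CD8 T cell markers 5 were higher past the threshold, as were 5 of 10 T cell markers. Both vcS5 libraries lay above wild type in 6 of 6 and 9 of 10 of these. Over all rows 27.5% lay below and 26.9% above without overlap. Natural killer markers were split, with 4 of 7 rows higher and 1 lower, and macrophage and monocyte markers likewise, with 2 of 9 higher and 1 lower. The higher natural killer rows were both Klra8 rows, Klrd1 and Eomes, which is also on the CD8 T cell list, and the lower row was Ncr1. Short of the threshold, Klrk1 was higher and Klrb1c lower in both vcS5 libraries. None of 9 erythroid markers passed the limma test, and 0 did so at an unadjusted p under 0.05. No marker row of any cell type was at 0 in either group, but listed markers without a row could not be counted. Fewer cells of a type and less RNA per cell cannot be told apart in these bulk libraries, and this holds for every gene below.

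Of the 59 chaperone rows, 2 rose in vcS5 and none fell. They were Dnajc15, a DNAJ protein of the inner mitochondrial membrane, and Dnaja4, a cytosolic class A DNAJ. The test was limma on log2(FPKM + 1) over all 14226 rows, two-sided, with a Benjamini-Hochberg adjusted p under 0.05. These 2 calls are 3.39% of the members, beside 8.72% of all rows called in either direction. Calls higher in vcS5 took 3.39% of members and 4.59% of all rows, and calls lower took 0 members and 4.13% of all rows. At an unadjusted p under 0.05, 10 members passed, 4 higher and 6 lower, which is 16.9% of them beside 25.3% of all rows. In 15 members both vcS5 libraries lay above both wild-type libraries and in 16 both lay below, which is 25.4% and 27.1%, beside 26.9% and 27.5% of all rows. The median log2 change of the members was -0.04 beside 0.001 over all rows, and single members ran from -0.94 to 1.87. As a set the members were therefore called no more often than the rest of the table. In the authors' deposited table the q-value is under 0.05 for 7 members, or 11.9% of them beside 11.5% of all rows. There Dnaja4, Dnajc15 and Hspbp1 are higher in vcS5 (5.08% of members beside 5.31% of all rows), and Dnajb9, Hspa1a, Hspa1b and Hspa2 are lower (6.78% beside 6.14%).

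**Figure D1:**
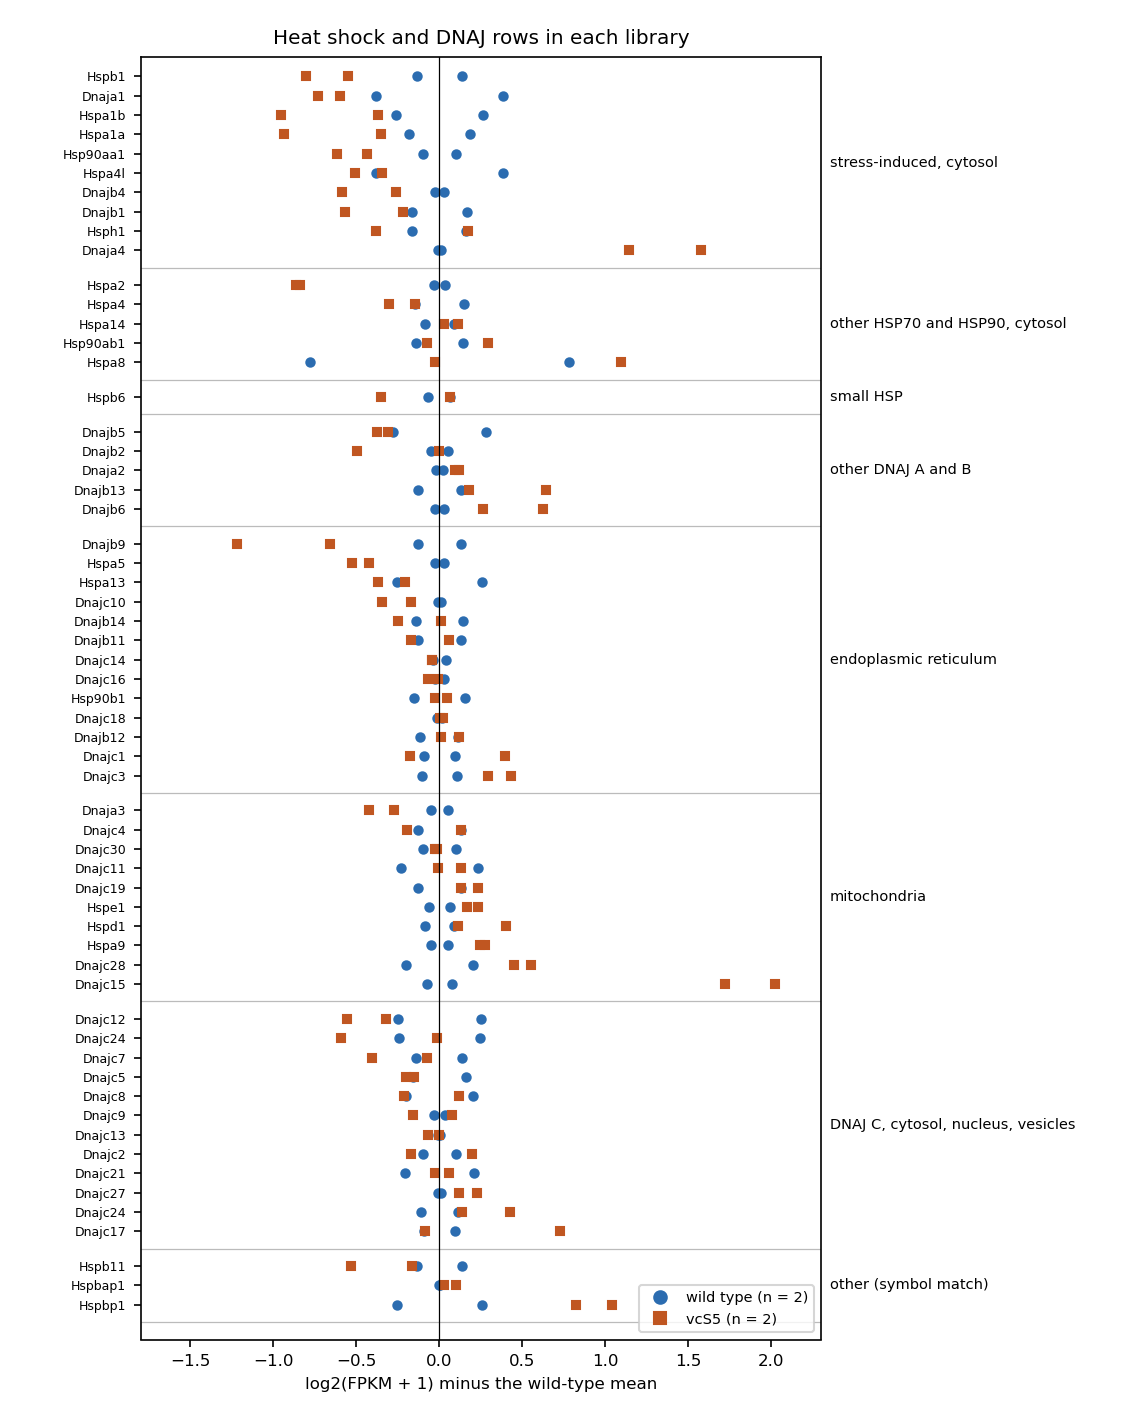
Each row is 1 of the 59 members, ordered within its role by its change. The horizontal axis gives log2(FPKM + 1) minus the wild-type mean of that gene. Circles are the 2 wild-type libraries and squares the 2 vcS5 libraries. In 28 members the squares overlap the circles, while both squares of Dnajc15 and Dnaja4 lie far to the right and most stress-induced members lie to the left.

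Dnajc15 showed the largest change of any member. Its FPKM was 37.3 and 41.5 in wild type against 132 and 163 in vcS5. The groups lay far apart, with means of 39.4 ± 2.99 and 148 ± 21.8 (SD, n = 2 each), a 3.74-fold rise. The log2 change was 1.87 with an SE of 0.166 and a limma adjusted p of 0.00755. Dnajc15 is encoded at chr14:77826217-77874917 on the minus strand (mm10, the span of its row in the table), and its protein assists the import motor of the inner membrane. The adjusted p passed the threshold without wild-type replicate 2 and was 0.0663, 0.062 and 0.0846 without wild-type replicate 1, vcS5 replicate 1 and vcS5 replicate 2. CD8 T cell markers moved with it, with summed FPKM of 502.5 and 440.3 in wild type against 3530 and 3933 in vcS5. Ccl5 made up most of the vcS5 sums, at 287 and 193 in wild type against 2132 and 2382 in vcS5. Summed FPKM of the 10 T cell markers overlapped, at 2881 and 1276 in wild type against 2534 and 4440 in vcS5. In 9 of these 10 rows both vcS5 libraries lay above wild type. The part of these markers in the rise of Dnajc15 was not tested.

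The other mitochondrial members were closer to wild type. Of 10 measured, 1 rose, 6 had both vcS5 libraries above both wild-type libraries, 1 had both below and 3 overlapped, where 26.9% of all rows lay above and 27.5% below without overlap. Their median log2 change was 0.19. Summed FPKM of the 10 was 450.4 and 468 in wild type against 590.2 and 633 in vcS5, and without Dnajc15 it was 413.1 and 426.5 against 458 and 470. The chaperonin pair Hspe1 (HSP10) and Hspd1 (HSP60), which form the folding chamber of the matrix, stood at 149 and 164 against 184 and 176 FPKM, and at 71.0 and 62.5 against 71.9 and 88.4 FPKM. Their log2 changes of 0.20 and 0.26 had adjusted p of 0.466 and 0.416 in limma. Hspa9 (mortalin), the HSP70 of the matrix, was at 73.4 and 68.3 in wild type against 83.9 and 86.0 in vcS5, and its log2 change of 0.26 had an adjusted p of 0.305 in limma. All 3 abundant members thus had both vcS5 libraries above wild type without passing the test. Dnaja3 (TID1), the DNAJ partner of mortalin, went the other way, at 46.5 and 49.9 in wild type against 39.7 and 35.6 in vcS5, with an adjusted p of 0.2 in limma. Its row lists several gene identifiers and shares a locus with Coro7, so reads of the neighbours could in part be exchanged. Dnajc28 was low throughout, at 1.85 and 1.16 in wild type against 2.39 and 2.64 in vcS5. Dnajc19, a partner of the import motor like Dnajc15, was at 18.3 and 15.1 in wild type against 19.7 and 18.3 in vcS5.

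Hspe1 and Hspd1 lie head to head, with annotated spans that overlap, and share 1 locus in the table (chr1:55077835-55091307). The stretch around their starts, which is annotated as exon, holds a heat shock element, the binding site of HSF1, built from inverted GAA units. Among 250-base windows upstream of gene starts from RefSeq (GRCm38.p6), the form GAANNTTCNNGAA, searched on both strands, was found in 3 of 47 members with a window (6.38%), namely Dnajb6, Hspd1 and Hspe1, and in 0.514% of all 27025 genes. The site is shown as read towards each gene, at chr1:55088053-55088082, with the repeated units in capitals.
Hspe1: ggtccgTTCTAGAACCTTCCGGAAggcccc
Hspd1: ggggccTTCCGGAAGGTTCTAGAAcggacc
Both lines are the same 30 bases on opposite strands, and the site ends 72 bases before the start of Hspe1 and 127 before 1 of the 2 RefSeq starts of Hspd1. The window of the other Hspd1 start (chr1:55088244-55088493) does not hold the site.

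The stress-induced members of the cytosol split into 1 that rose and a majority with lower values. Of 10 measured, Dnaja4 rose, 7 had both vcS5 libraries below both wild-type libraries (beside 27.5% of all rows) and 2 overlapped, with a median log2 change of -0.48 beside 0.001 over all rows. None of the lower members passed the limma test, and 3 had an unadjusted p under 0.05. Summed FPKM of the 10 was 884.4 and 910.3 in wild type against 639.9 and 611 in vcS5. Immediate early genes, which switch on when cells are stimulated or when tissue is dissociated, mostly moved with them. Of 14 such genes 8 fell past the threshold (Egr1, Fosb, Nr4a1, Fos, Zfp36, Jun, Dusp1 and Egr2), beside 4.13% of all rows called lower. Both vcS5 libraries lay below wild type in 13 of the 14. In the remaining gene, Ier3, both lay above, at 10.8 and 4.39 FPKM in wild type against 11.4 and 11.2 in vcS5. Summed FPKM of the 14 was 1477 and 1555 in wild type against 946.7 and 798.7 in vcS5. The part of immediate early genes in the lower values of the stress-induced members was not tested.

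Dnaja4 was near 4.4 FPKM in wild type, at 4.44 and 4.38, and at 10.9 and 15.1 in vcS5. The means were 4.41 ± 0.0452 and 13.0 ± 2.98 (SD, n = 2 each), a 2.96-fold rise with a limma adjusted p of 0.0212 (SE of the log2 change 0.195). Dnaja4 is a cochaperone of cytosolic HSP70 that heat and other stress induce. Its row spans chr9:54698873-54734543 on the plus strand and shares that locus with Wdr61, which had 23.7 and 24.6 FPKM in wild type against 28.2 and 29.2 in vcS5, so reads of the neighbours could in part be exchanged. Leaving out any 1 of the 4 libraries moved the adjusted p of Dnaja4 above the threshold, to between 0.0749 and 0.125 in limma, while the log2 change stayed between 1.14 and 1.58.

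Hspa1a and Hspa1b, the paired genes of stress-induced HSP70, had lower values in vcS5. Hspa1a was at 47.3 and 61.3 FPKM in wild type against 41.9 and 27.7 in vcS5. Hspa1b was at 116 and 166 in wild type against 107 and 71.1 in vcS5. The groups did not overlap in either gene, but 1 vcS5 library lay close to the lower wild-type library. The limma adjusted p was 0.191 for a log2 change of -0.65 in Hspa1a, and 0.221 for -0.66 in Hspa1b. In the authors' deposited table their q-values are 0.00473 and 0.00605. The genes are near-identical copies, so reads could be split between them in either direction, and their summed FPKM was 163 and 227.7 in wild type against 149.2 and 98.79 in vcS5.

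The likeness reaches into their promoters, which are shown to make that visible. The 250 bases before each start, at chr17:34972157-34972406 for Hspa1a and chr17:34959239-34959488 for Hspa1b, both on the minus strand of GRCm38.p6, differ at 3 of 250 positions. Capitals mark the 2-unit heat shock element GAANNTTC, which lies 97 to 104 bases before the start in both.
Hspa1a: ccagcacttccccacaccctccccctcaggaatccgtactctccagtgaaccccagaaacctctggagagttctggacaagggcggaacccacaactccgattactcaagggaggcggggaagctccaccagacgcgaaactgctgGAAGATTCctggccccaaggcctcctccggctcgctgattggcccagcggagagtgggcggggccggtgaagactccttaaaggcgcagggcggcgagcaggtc
Hspa1b: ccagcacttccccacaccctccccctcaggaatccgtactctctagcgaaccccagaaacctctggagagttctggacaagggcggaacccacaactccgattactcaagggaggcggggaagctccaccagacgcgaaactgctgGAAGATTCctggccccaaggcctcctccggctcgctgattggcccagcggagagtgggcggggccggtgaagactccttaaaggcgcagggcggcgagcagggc
In both windows the capitals spell the same 8 bases.

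Hsp90aa1, the inducible HSP90, was the most abundant of the stress-induced members by mean. It was at 272 and 312 FPKM in wild type against 190 and 215 in vcS5, groups that did not overlap, and its log2 change of -0.53 (SE 0.165) had an adjusted p of 0.129 in limma. Dnaja1, the main class A DNAJ of the cytosol, was at 269 and 158 in wild type against 136 and 124 in vcS5. Wild-type replicate 1 stood well above the other 3 libraries there, and the adjusted p was 0.22 in limma. Its row shares a locus with Smu1. Dnajb1, the class B partner of inducible HSP70, was at 86.4 and 109 in wild type against 83.3 and 65.1 in vcS5. Hspb1, the small heat shock protein HSP27 (HSP25 in mice), was barely above the lower limit of the table at 1.70 and 2.25 in wild type against 1.02 and 0.698 in vcS5. Dnajb4 showed the same order at 12.6 and 13.1 against 10.6 and 8.21. Hsph1 (HSP110), a nucleotide exchange factor of HSP70, overlapped between groups at 60.6 and 76.1 against 51.9 and 76.6, as did Hspa4l at 14.4 and 8.10 against 7.34 and 8.32.

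A 2-unit heat shock element, GAANNTTC or TTCNNGAA on either strand, was found in the windows of 13 of 47 member genes (27.7%) and of 14.5% of all genes. Dnaja4, which rose, holds 2 of them, at chr9:54699458-54699487 and chr9:54699496-54699525. The window of another Dnaja4 start (chr9:54699033-54699282) does not hold them. Hspb1 also holds 2, at chr5:135887791-135887820 and chr5:135887811-135887840. It was lower in both vcS5 libraries, but near the lower limit of the table and not past the threshold (limma adjusted p 0.149). These 2 genes were picked for their opposite orders of values, and the part of the element in either order was not tested. They are set side by side with the element in capitals.
Dnaja4, first site: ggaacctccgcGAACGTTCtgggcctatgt
Dnaja4, second site: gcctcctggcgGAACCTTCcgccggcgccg
Hspb1, first site: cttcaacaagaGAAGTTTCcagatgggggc
Hspb1, second site: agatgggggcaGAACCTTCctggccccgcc
The second sites of both genes share the 8 bases in capitals. Of the 13 member rows with such an element 5 had both vcS5 libraries above wild type, 6 both below and 2 overlapped, with a median log2 change of -0.14, and of the 35 member rows with a window but no such element these counts were 9, 8 and 18, with a median of -0.04. Over all rows 26.9% lay above and 27.5% below without overlap. A match of letters is a description of the window and does not show that a factor binds there. The STAT5 element TTCNNNGAA was found in 3 of 47 member windows (6.38%), those of Dnajc13, Dnajc27 and Dnajc7, beside 8.13% of all genes.

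**Figure D2:**
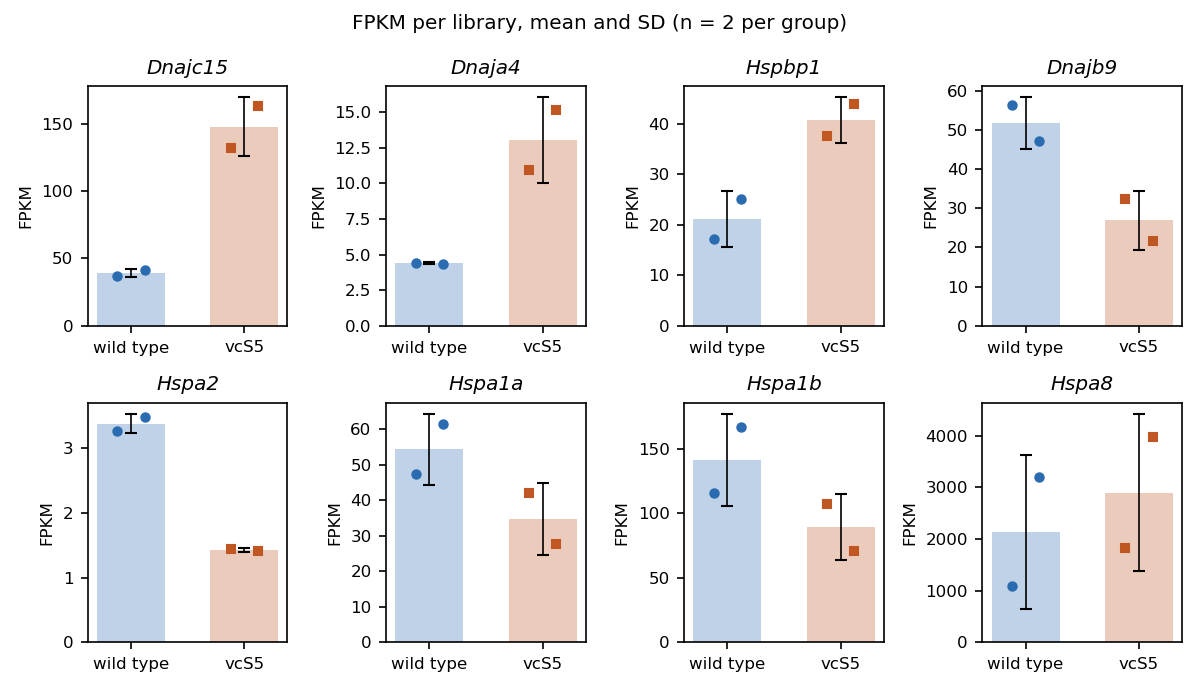
FPKM in each library for 8 members, with bars from 0 for the group mean, error bars for the SD (n = 2) and points for libraries. Dnajc15, Dnaja4 and Hspbp1 are higher in both vcS5 libraries, Dnajb9, Hspa2, Hspa1a and Hspa1b are lower in both, and the libraries of Hspa8 differ more within a group than the group means do.

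The constitutive chaperones of the cytosol held the highest levels of all members. Hspa8 (HSC70), the housekeeping HSP70 that also uncoats clathrin vesicles, was at 1083 and 3195 FPKM in wild type against 1824 and 3974 in vcS5. Its libraries differed within each group by far more than the group means of 2139 ± 1494 and 2899 ± 1521 (SD, n = 2 each) differed from each other, and the log2 change of 0.53 had an SE of 0.639 and an adjusted p of 0.679 in limma. The Hspa8 row (chr9:40800984-40805200, plus strand) covers annotated small nucleolar RNA genes in its introns (Snord14c, Snord14d and Snord14e). Whether their reads enter its value was not tested. Hsp90ab1, the constitutive HSP90, was at 1001 and 1215 in wild type against 1045 and 1352 in vcS5, with an adjusted p of 0.838 in limma. These genes held a large part of the family total, which varied between libraries. Hspa8 took 19.5% and 40% of the members' summed FPKM in wild type against 30.4% and 46.2% in vcS5. Hsp90ab1 took 18% and 15.2% against 17.4% and 15.7%. Hspa4, an exchange factor of the HSP110 type, and Hspa14, a ribosome-linked HSP70, overlapped between groups. Hspa2, an HSP70 best known from the testis, was low, with replicates close together, at 3.27 and 3.48 in wild type against 1.44 and 1.41 in vcS5. Its log2 change of -0.85 (SE 0.179) had an adjusted p of 0.0517 in limma, and the ratio of means was 2.37-fold in favour of wild type.

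Among the remaining class A and B DNAJ proteins of the cytosol and nucleus none of 5 passed the limma test, and 1 had an unadjusted p under 0.05. That was Dnajb6, which keeps aggregation-prone proteins soluble, at 38.7 and 37.3 FPKM in wild type against 59.0 and 45.8 in vcS5, with an adjusted p of 0.188 in limma. Dnaja2, a general HSP70 partner, was nearly level at 51.6 and 50.0 against 55.1 and 54.4. Dnajb5 was lower in both vcS5 libraries, Dnajb13 higher in both, and Dnajb2 overlapped. The 1 small heat shock protein outside the stress-induced list, Hspb6, also overlapped, at 2.60 and 2.28 against 1.69 and 2.59.

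In the ER none of 13 members passed the limma test, and 2 had an unadjusted p under 0.05, both lower. The vcS5 libraries lay above wild type without overlap in 1 member and below in 4, beside 26.9% and 27.5% of all rows. Dnajb9 (ERdj4), a DNAJ that feeds misfolded proteins into degradation and is induced by the unfolded protein response, had the lowest change of all members, at 56.3 and 47.1 FPKM in wild type against 32.2 and 21.5 in vcS5. Its means of 51.7 ± 6.56 and 26.9 ± 7.57 (SD, n = 2 each) differed by -0.94 on the log2 scale (SE 0.229), with an adjusted p of 0.0733 in limma. The q-value in the authors' deposited table is 0.000995. With the replicate number as a block its adjusted p was 0.0433 in limma.

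Hspa5 (BiP), the HSP70 of the ER and sensor of unfolded protein, was at 478 and 459 FPKM in wild type against 325 and 349 in vcS5. The spread within groups was small, at ± 13.2 and ± 17.2 (SD, n = 2 each) around 469 and 337, and the log2 change of -0.47 (SE 0.159) had an adjusted p of 0.147 in limma. Hsp90b1 (GRP94), the HSP90 of the ER, was equally abundant but level, at 473 and 383 in wild type against 438 and 417 in vcS5. Dnajb11 (ERdj3), which delivers clients to BiP, was at 76.2 and 91.4 against 74.1 and 86.8, and Dnajc3 (P58IPK) at 30.7 and 26.4 against 38.7 and 35.1. So among the DNAJ proteins of the ER, Dnajb9 was lower, Dnajb11 overlapped and Dnajc3 was higher in both vcS5 libraries, none of them past the threshold. Dnajc10 (ERdj5), which reduces disulfide bonds, was also lower in both, at 23.5 and 23.8 against 20.8 and 18.4, and not past the threshold. Plasma cell markers moved in the direction of Hspa5 and Dnajb9, with summed FPKM of 1396 and 991.7 in wild type against 796 and 599 in vcS5 and 10 of 12 rows below wild type without overlap. Igj made up most of these sums, at 965 and 566 in wild type against 554 and 372 in vcS5. Creld2 and Prdm1 overlapped between groups, and Prdm1 had a log2 change of 0.21. The part of these markers in the Hspa5 and Dnajb9 values was not tested.

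The ER stress response element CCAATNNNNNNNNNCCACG, the site of ATF6, was found on either strand in the windows of Hspa5, Hsp90b1 and Dnajc3, which is 3 of 47 members (6.38%) beside 0.13% of all genes. The sites are printed because these 3 genes share the element and had different orders of values, with Hspa5 lower, Hsp90b1 overlapping and Dnajc3 higher. They lie at chr2:34772020-34772048 for Hspa5, chr10:86705633-86705661 and chr10:86705528-86705556 (minus strand) for Hsp90b1, and chr14:118937822-118937850 for Dnajc3, with the element in capitals.
Hspa5: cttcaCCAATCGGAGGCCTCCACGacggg
Hsp90b1, far site: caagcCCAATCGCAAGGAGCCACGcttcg
Hsp90b1, near site: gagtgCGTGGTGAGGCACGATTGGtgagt
Dnajc3: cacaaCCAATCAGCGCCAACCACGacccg
The near site of Hsp90b1 holds the element in reverse orientation.

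Class C DNAJ proteins, which share only the J domain and have specialised clients, made up 12 rows. None of them passed the limma test, 0 had an unadjusted p under 0.05, and 9 overlapped between groups, while 2 lay above and 1 below without overlap, beside 26.9% and 27.5% of all rows. A Dnajc24 row was among those above, at 2.94 and 3.60 FPKM in wild type against 4.72 and 3.67 in vcS5. The other, more abundant Dnajc24 row at the same locus overlapped, at 18.3 and 26.1 against 14.1 and 21.6. The log2 changes of these rows were 0.28 and -0.31. Dnajc7 (TPR2), which links HSP70 to HSP90, was the most abundant at 347 and 421 FPKM in wild type against 288 and 362 in vcS5. Its row shares a locus with Dhx58, Nkiras2 and Cnp, so reads of the neighbours could in part be exchanged. Dnajc8, a splicing-associated nuclear protein, was at 86.4 and 115 against 85.7 and 108. Dnajc5, the cysteine string protein of secretory vesicles, was at 57.4 and 71.7 against 57.5 and 55.7. In Dnajc7 and Dnajc8 the libraries of a group differed by more than the group means did. The largest change of the group was that of Dnajc12, at 1.77 and 2.92 in wild type against 1.24 and 1.64 in vcS5, with an adjusted p of 0.357 in limma.

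Of the members that carry the symbol without being a heat shock protein or a DNAJ, Hspbp1 stood out. It encodes a nucleotide exchange factor that releases clients from HSP70, and was at 17.3 and 25.1 FPKM in wild type against 37.6 and 43.9 in vcS5. The means of 21.2 ± 5.52 and 40.8 ± 4.47 (SD, n = 2 each) gave a log2 change of 0.93 (SE 0.215) and an adjusted p of 0.0638 in limma. The authors' deposited table gives a q-value of 0.00851, and the adjusted p was 0.0436 with the replicate number as a block. Hspb11, an intraflagellar transport protein, was at 12.2 and 15.0 against 11.9 and 9.05, and Hspbap1 was at 3.07 and 3.09 against 3.38 and 3.15.

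**Figure D3:**
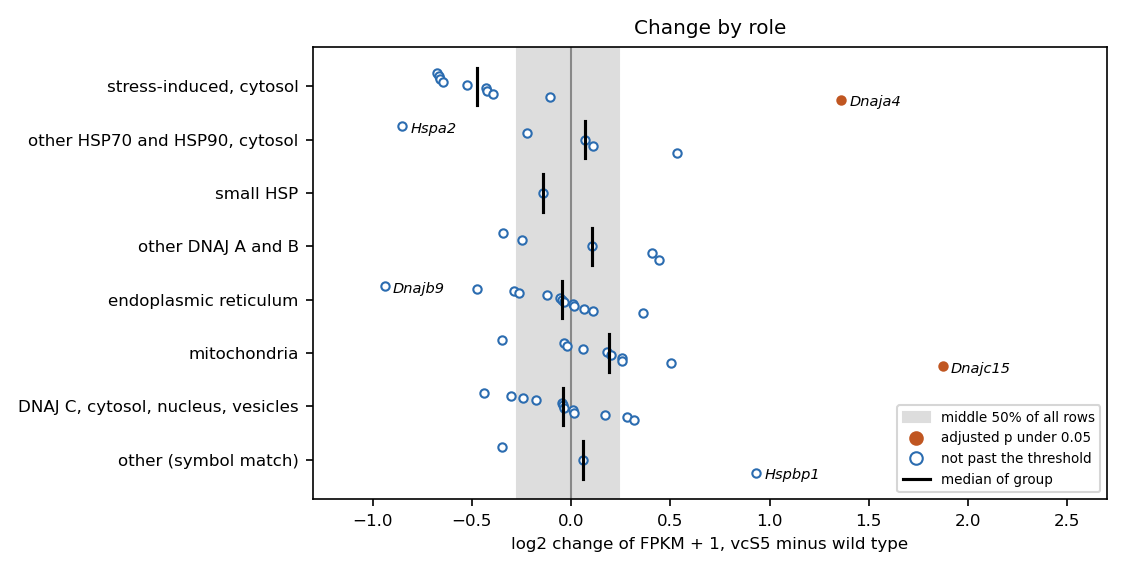
Each point is a member and the horizontal axis is its log2 change of FPKM + 1, vcS5 minus wild type. Filled points passed the adjusted p of 0.05 and vertical bars are group medians. The grey band is the middle 50% of all rows. The stress-induced median of -0.48 lies to the left of the band, the other medians lie inside it, and the 2 filled points are Dnajc15 at 1.87 and, to its left, Dnaja4.

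The spread between replicates of the members was close to that of the table. The median absolute log2 difference between the libraries of a group was 0.23 in wild type against 0.219 in vcS5, beside 0.204 and 0.208 over all rows. Replicate 2 lay above replicate 1 in 36 of 59 members in wild type, in 30 in vcS5 and in 21 in both groups. Over all 14226 rows these counts were 7963, 7882 and 5252. Hspa8 had the largest difference in both groups, with replicate 2 above replicate 1 by 1.56 on the log2 scale in wild type and by 1.12 in vcS5, and 99.0% and 97.5% of all rows had a smaller or equal difference. Because Hspa8 is so abundant, it also set the members' total, which was 5563 and 7989 FPKM in wild type against 5997 and 8603 in vcS5, and 4481 and 4794 against 4173 and 4629 without it. Next in wild type came Dnaja1 (-0.77) and Hspa4l (-0.76), both lower in replicate 2. In vcS5 the next were Dnajc17 (0.81), a splicing-associated DNAJ at 8.62 and 15.9 FPKM, and Hspa1b (-0.59). Hspa1b and its copy Hspa1a were higher in replicate 2 than in replicate 1 in wild type (0.52 and 0.37) and lower in vcS5 (-0.59 and -0.58), so replicate numbers did not order the libraries in the same way for the inducible HSP70 genes.

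**Figure D4:**
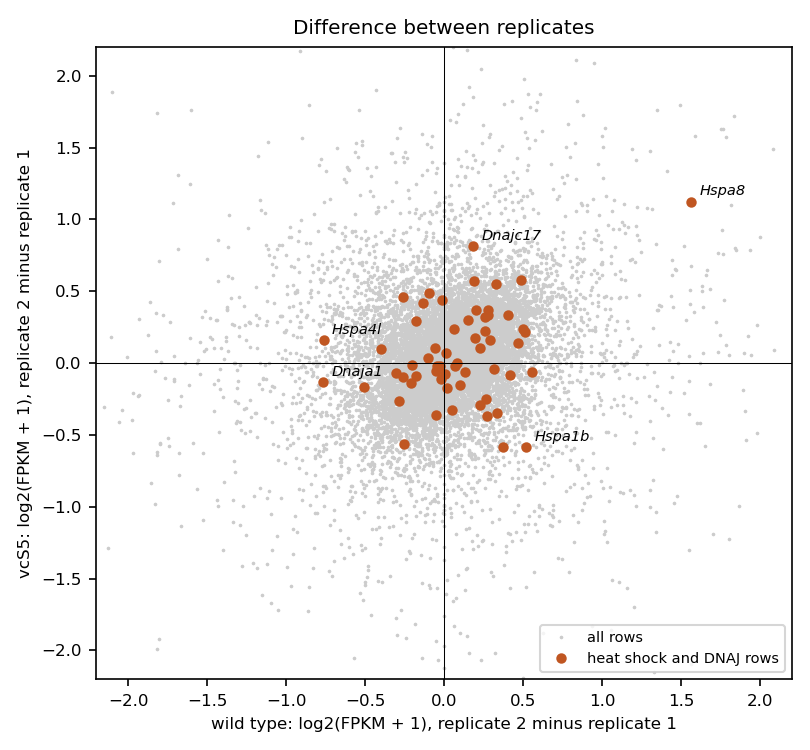
The horizontal axis is the log2(FPKM + 1) difference between wild-type replicates and the vertical axis that between vcS5 replicates, replicate 2 minus replicate 1. Large points are the 59 members and small points all rows, with 74 rows outside the axes. Hspa8 lies apart at the upper right (1.56 and 1.12), and most members lie near the centre of the cloud.

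Other genes of the same pathways were read from lists of chaperone and folding genes. Of 74 rows on these lists that are not members, 1 was higher past the threshold, 1 was lower and 13 had an unadjusted p under 0.05 (2 higher and 11 lower). Over all rows 8.72% were past the threshold, 4.59% higher and 4.13% lower. An unadjusted p under 0.05 was found in 25.3% of all rows, 12.1% higher and 13.1% lower. Among 4 heat shock factors Hsf4 rose, at 1.13 and 1.22 FPKM in wild type against 5.35 and 10.4 in vcS5, with a log2 change of 1.97 (SE 0.309) and an adjusted p of 0.026 in limma. Without any 1 of the 4 libraries that adjusted p lay between 0.0588 and 0.117. Hsf1, the main regulator of the heat shock response, was level at 27.8 and 35.6 against 29.6 and 36.6. Hsbp1, a small binding partner of HSF1, was at 42.1 and 45.7 against 34.2 and 31.5.

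Of 26 rows for ER folding and the unfolded protein response 13 had both vcS5 libraries below both wild-type libraries and 3 both above, beside 27.5% and 26.9% of all rows, with a median log2 change of -0.25. Plasma cell markers moved with them, 10 of 12 below wild type without overlap, and 3 genes (Xbp1, Derl3 and Creld2) are on both lists. Their part in these values was not tested. Syvn1 (HRD1), a ubiquitin ligase of ER-associated degradation, fell from 82.0 and 88.1 FPKM to 46.6 and 44.4, a log2 change of -0.89 (SE 0.133) with an adjusted p of 0.0236 in limma, and between 0.105 and 0.148 when any 1 library was left out. Its row shares a locus with Mrpl49. Atf6, the sensor whose site is printed above, was at 15.8 and 15.5 in wild type against 9.94 and 8.26 in vcS5, with an adjusted p of 0.0514 in limma. The cytosolic chaperonin TRiC, which folds actin and tubulin, had all 8 subunits above 0 in log2 change with a median of 0.22, yet none passed the limma test and 0 had an unadjusted p under 0.05. Its subunit Cct4 was at 155 and 139 against 187 and 182, and Cct7 at 66.7 and 69.8 against 74.9 and 89.0. None of 23 cochaperones of HSP70 and HSP90 outside the symbol rule passed the limma test, and 1 had an unadjusted p under 0.05. That was Ahsa2, an activator of HSP90, at 46.5 and 53.1 against 34.9 and 40.5. None of 13 rows for mitochondrial folding and proteases passed the limma test, and 1 had an unadjusted p under 0.05. That was Htra2, a protease of the intermembrane space, at 35.7 and 38.6 in wild type against 23.6 and 25.5 in vcS5, with an adjusted p of 0.0664 in limma. Grpel2, the exchange factor of mortalin, was at 13.6 and 12.7 against 10.9 and 9.60.

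Not every gene of the family could be described. GENCODE vM21 lists 75 protein-coding genes with these symbols. The 17 without a member row were Dnajb3, Dnajb7, Dnajb8, Dnajc22, Dnajc25, Dnajc5b, Dnajc5g, Dnajc6, Hspa12a, Hspa12b, Hspa1l, Hspb2, Hspb3, Hspb7, Hspb8, Hspb9 and Hspg2, and they were not analysed here. Each row of the table has a mean FPKM of at least 1, so a member present at all had passed a level filter, and 50 of the 59 had a mean of at least 5. A locus was shared with another row in 18 members, where reads of neighbours or overlapping genes could be exchanged.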

How the data were processed

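RNA-seq libraries came from 2 wild-type and 2 vcS5 splenocyte samples, per the labels. The authors deposited FPKM per library, and their table also gives a log2 fold change, a p-value and a q-value, per the file headers. The submitters' processing notes name TopHat2 2.0.9, Bowtie2 2.1.0, Cuffdiff 2.1.1, Cufflinks and the build mm10, without settings. The kit does not mark strand. FPKM holds no read numbers, so depth is unknown and no counting interval is given.

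Values were taken as log2(FPKM + 1), which understates changes of low genes, and folds are ratios of mean FPKM. Requiring a mean FPKM of 1 or more removed 0 of 14226 rows. limma 3.58.1 in R 4.3.3 was fitted with a variance trend and no covariates to all 4 libraries, with Benjamini-Hochberg adjustment over all rows, 3.17 prior and 2 residual degrees of freedom. The script was tested on simulated data. The labels call the replicates biological and do not say whether they are separate mice, so p-values measure the spread between these libraries.

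Upstream windows were read from a RefSeq table (GRCm38.p6), with 47 of 58 member genes matched. Coordinates are 1-based. Members and gene lists were chosen with earlier results of these data known, and p-values over the list alone are not given. Named genes were the members past the threshold, the 3 most abundant and the most changed of each role, 15 fixed chaperones, the 3 largest replicate differences per group, Stat5a, Hsf1 and the 2 lowest p-values of each other folding list. Genes named besides these (Dnajb4, Dnajb5, Dnajb13, Dnajb2, Hspa14, Dnajc10, Dnaja3, Dnajc28, Dnajc19, Dnajb6, Dnajc13, Dnajc27, Dnajc24, Xbp1, Derl3, Creld2, Igj, Prdm1, Ccl5, Klra8, Klrd1, Eomes, Klrk1, Ncr1, Klrb1c, Mrpl49, Smu1, Wdr61, Coro7, Dhx58, Nkiras2, Cnp, Ier3 and the fallen immediate early genes) were chosen after their values were seen. Alternatives were other pseudocounts and filters, quantile normalization, no variance trend, a replicate block, the authors' q-values and leaving out each library.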

Additional observations from a re-analysis of the deposited data

How the results depend on the processing

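The count of 2 members past the threshold was smaller when any 1 library was left out, with the lone library assumed to vary like the other group. It was 7 by the authors' q-values and 1 among the 41 members with a locus of their own, a split added after seeing the data, since Dnaja4 shares its locus. Without the variance trend it was 3, with Hspa2 added at an adjusted p of 0.0343 in limma. The share of all rows called without the trend is not given here, so this count cannot be set beside it. Over all rows, leaving out 1 library gave 71 to 245 calls in place of 1241. The other folding lists gave 4 calls by quantile normalization, 4 by the authors' q-values and 0 with any 1 library left out, in place of 2. The median change of the members ran from -0.156 without vcS5 replicate 2 to 0.00305 without vcS5 replicate 1. Of the 43 named genes under 13 alternatives, 526 values stayed on their side of the threshold, 11 passed it in addition and 16 no longer did, and none changed direction while called. Only Dnajc15, Dnaja4, Hsf4, Syvn1 and Stat5a were called in the main fit, so most values that stayed were of genes without a call there. All 16 losses were of these called genes, in fits with 1 library left out. Each of them lost its call in at least 1 such fit, Stat5a in the fit without vcS5 replicate 2.

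Replicate numbers give no pairing in the labels. Same-numbered libraries deviated together with a correlation of 0.176 over rows, from 2 pairs only. With the replicate block 4 members passed, Dnajc15, Dnaja4, Hspbp1 and Dnajb9. The share of all rows past the threshold with this block is not given here. The added calls are therefore no result about the members as a set.

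With 2 libraries a group, Hspa5 and Hsp90aa1 were not called although their groups did not overlap, and the absence of a call does not show equal levels. Read numbers are unknown, so counting error in low members such as Hspa2 and Hspb1 could not be given.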
